A study of Mus musculus with 6 samples.

Results

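The heat shock chaperone genes described here are Hspa1a, Hspa1b, Hspa8, Hsp90aa1, Hsp90ab1, Hspb1, Hsph1, Dnajb1, Hspd1 and Hspe1. They were taken by gene symbol from the gene table, which holds 21686 genes, and each of the 10 symbols matched 1 row. RNA was sequenced from MC3T3-E1 Subclone 14 cells, 1 clonal line of mouse osteoblast precursors, in 6 libraries. The 2 control libraries came from cells given 100 µL of PBS, the 2 dexamethasone libraries from cells given 10 µM of this synthetic glucocorticoid, and the 2 dexamethasone + EPC-EVs libraries from cells given 10 µM dexamethasone with 100 µg of extracellular vesicles secreted by endothelial progenitor cells of mouse bone marrow. All cells were treated for 72 h by the sample labels, which were followed here, whereas the series text speaks of fibroblasts and a shorter treatment. No group received vesicles without dexamethasone.

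Heat shock proteins are molecular chaperones, which hold unfolded proteins, refold them with the energy of ATP or pass them on for degradation. HSP70 proteins work with J-domain partners that bring the substrate and with nucleotide exchange factors that let it go, and HSP90 proteins finish the folding of kinases and steroid receptors, the glucocorticoid receptor among them. In the mitochondrial matrix, HSP60 and its lid HSP10 enclose a protein while it folds. Under proteotoxic stress the transcription factor HSF1 binds repeated nGAAn units in front of many of these genes.

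The total counts were 5146760 to 6583735 in the first 4 libraries, and with vesicles they were 12864009 and 13182014. A count of 0 therefore allowed up to 0.228 to 0.583 CPM (counts scaled to the library total), for counting error only. The dexamethasone + EPC-EVs libraries also stood apart in composition, since mitochondrially encoded genes took 0.465% and 0.727% of their counts and 5.55% to 8.62% of the counts of the other 4 libraries. The noncoding RNA Gm26917 was their most counted gene, with 5.88% and 6.69% of the counts. All 10 osteoblast lineage markers were in the table, with a summed level of 15960 to 17490 CPM in control, 17200 to 17460 CPM in dexamethasone and, with vesicles added, 22980 to 28980 CPM. Spp1, Col1a1, Col1a2 and Sparc carried this sum, and Runx2 had 154 to 204 CPM, whereas the markers of mature osteoblasts Alpl, Bglap, Bglap2 and Ibsp had 0 to 6.52 CPM in any library and Sp7 had 1.20 to 20.4 CPM. Within the higher sum of the vesicle-treated libraries Spp1 was lower, with 6051 and 4328 CPM beside 10820 and 10570 CPM in dexamethasone (log2 fold change -1.06, edgeR adjusted p = 1.55e-04). Of 8 endothelial markers 5 were in the table, with a sum of 1.57 to 5.42 CPM over the 6 libraries, and Cdh5 was at 0 in the control and dexamethasone + EPC-EVs groups. Of 6 leukocyte and macrophage markers 4 were in the table, with a sum of 10.9 to 16.6 CPM in control and dexamethasone and of 31.2 and 70.7 CPM in dexamethasone + EPC-EVs. Cd14 carried this rise with 24.02 and 32.8 CPM (log2 fold change over dexamethasone 2.44, edgeR adjusted p = 5.37e-04, and over control 1.65, edgeR adjusted p = 0.00853), together with Csf1r, which had 4.397 and 36.3 CPM (over control 4.25, edgeR adjusted p = 0.0259, and not called over dexamethasone). The call of Csf1r was lost without either control library or dexamethasone + EPC-EVs replicate 2 (edgeR adjusted p = 0.127, 0.271 and 0.459), that of Cd14 over control without dexamethasone + EPC-EVs replicate 2 (0.0705), and Cd14 over dexamethasone had a log2 fold change of 3.19 without dexamethasone replicate 2. Cd68 went the other way, with means of 4.14 CPM in control, 4.05 CPM in dexamethasone and 2.22 CPM in dexamethasone + EPC-EVs. Its log2 fold changes of -0.88 over dexamethasone and -0.91 over control were not called. Adgre1 was at 0 in the control and vesicle-treated libraries. The part of these differences in depth, composition and markers in the results was not tested, and the first 2 cannot be told apart from the treatment with vesicles.

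Because HSF1 is known to act through nGAAn units, the sequences in front of the members were searched. RefSeq promoter windows of GRCm38.p6 matched 7 of the 10 members, and Hspa8, Hsp90aa1 and Hsp90ab1 had no entry. The 250 bases before the start were searched for paired units facing each other, GAANNTTC, or away from each other, TTCNNGAA, each of which reads the same on both strands. GAANNTTC was found in 6.69%, TTCNNGAA in 7.17% and either of them in 12.8% of all 32851 windows of this length. The windows shown are those of the members that hold a match, with the matched letters in capitals. A match is a description of the letters and not a binding site.

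The 250 bases before Hspb1's, Hsph1's and Hspe1's starts are shown as 30-base stretches around the matches, and those before Hspa1b, the member with the largest fitted rise over dexamethasone, are shown whole (chr17:34959239-34959488, minus strand, outside of annotated exons).
Hspa1b: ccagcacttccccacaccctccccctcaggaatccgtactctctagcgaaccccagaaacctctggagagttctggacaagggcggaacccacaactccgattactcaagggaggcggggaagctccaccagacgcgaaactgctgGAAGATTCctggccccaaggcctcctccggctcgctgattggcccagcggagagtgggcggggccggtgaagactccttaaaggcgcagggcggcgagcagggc
Hspb1: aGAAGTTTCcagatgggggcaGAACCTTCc
Hsph1: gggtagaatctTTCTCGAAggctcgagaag
Hspe1: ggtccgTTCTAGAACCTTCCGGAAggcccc

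The same 250 bases before Hspa1a differed from those before Hspa1b at 3 positions, T44C, C47T and G249T, counted from 1 at the 5′ end of the window with the base of Hspa1b first. The match GAAGATTC at position -104 before the start was the same in both. Hspb1 held 2 matches (chr5:135887801-135887830, plus strand) and Hsph1 held 1 (chr5:149636351-149636380, minus strand). The stretch of Hspe1 (chr1:55088053-55088082, plus strand) held 3 overlapping matches in 18 bases, and it also lies before an annotated start of Hspd1, which is read from the other strand, and within the first exon of another annotated Hspd1 transcript. No match was found in the windows of Dnajb1.

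Levels were compared between members on the FPKM scale, whose deposited values follow counts divided by gene length and library total. The methods of the study describe the gene FPKM differently, as a sum over transcripts. Hsp90ab1, the constitutive cytosolic HSP90, had the highest mean FPKM in each group, at 779.9 ± 5.59 in control, 779 ± 18.0 in dexamethasone and, with vesicles added, 499 ± 9.89 (SD, n = 2 in each). Behind it in control came Hsp90aa1 (211.6), Hspd1 (101.6), Hspe1 (65.2), Hspa8 (33.1), Hsph1 (15.96), Dnajb1 (7.91), Hspa1b (4.001), Hspa1a (0.0275) and Hspb1 (listed at 0), and the libraries of neighbours in this order did not overlap down to Hspa1b. In dexamethasone the order was the same down to Hspa1b (3.85), whose libraries overlapped with those of Hspb1 (3.17). In dexamethasone + EPC-EVs, Hspa8 stood second with 91.2, followed by Hspd1 (73.6), Hsp90aa1 (57.4), Hsph1 (47.8), Hspa1b (30.3), Hspe1 (25.9), Dnajb1 (19.8), Hspb1 (3.16) and Hspa1a (0.105). There the libraries of Hsph1 overlapped with those of Hsp90aa1, those of Hspa1b with those of Hsph1, Hspe1 and Dnajb1, and those of Hsph1 with those of Hspe1. The ratio of Hspa8 to Hsp90ab1 FPKM was 0.0414 to 0.0449 in the first 4 libraries and reached 0.187 and 0.178 with vesicles. The Hsp90 pair made up 79.8% to 81.6% of the summed FPKM of the 10 members in the first 4 libraries and 68.5% and 62.8% in the last pair.

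Vesicle-treated cells were compared with cells given dexamethasone alone, the comparison that addresses what the vesicles changed. Hspa1b, Hspa8 and Dnajb1 rose, Hsp90aa1, Hsp90ab1 and Hspe1 fell, and Hsph1, Hspd1 and Hspb1 did not pass the test. Thus 6 of the 9 members tested had a Benjamini-Hochberg adjusted p under 0.05 in edgeR's quasi-likelihood test and were called, beside 39.8% of the 13556 genes tested. Higher calls made up 3 of the 9 members and 20.9% of all genes, and lower calls made up 3 of the 9 members and 18.9%. An unadjusted p under 0.05 was found for 7 of the 9 and for 48.4% of all genes, libraries that did not overlap between the groups for 8 of the 9 and for 72.4%, and the threshold of the study's methods, an unadjusted p under 0.05 with a log2 fold change beyond 1.5, was passed by 2 of the 9 (Hspa1b and Dnajb1) and by 14.2%. The median log2 fold change of the 9 members was 0.05, the value of Hspb1, and that of the other 8 was 0.63, which lies in the gap between members above and below 0. It was 0.01 for all genes. Hspa1a did not pass the filter on low counts in any comparison. Fewer cells and less RNA per cell cannot be told apart in these bulk samples. The comparisons with dexamethasone and with control share the dexamethasone + EPC-EVs libraries, so their values are given side by side and are not independent.

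**Figure D1:**
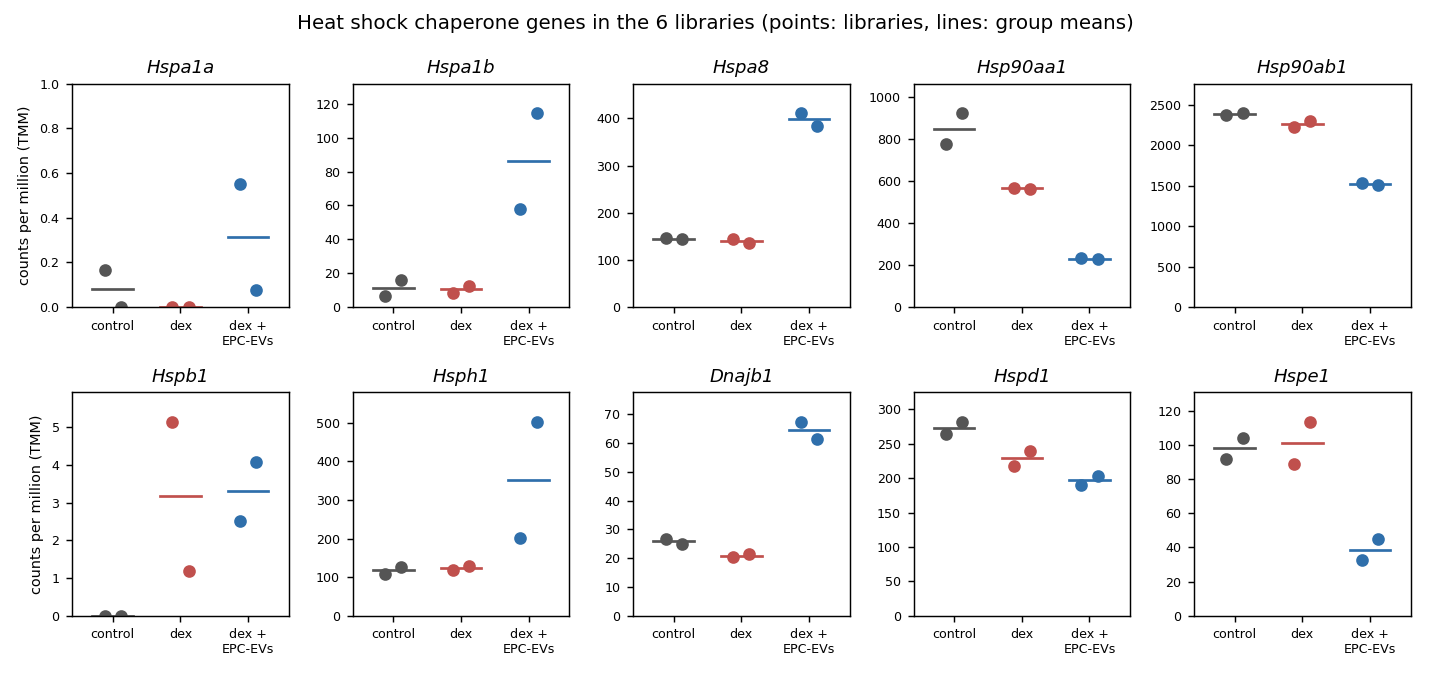
Level of each heat shock chaperone gene (y axis, CPM after TMM normalisation, starting at 0 and scaled per gene) in the 3 groups (x axis, dex for dexamethasone), with 1 point per library and a line at the group mean. Hspa1b, Hspa8, Hsph1 and Dnajb1 were highest in both dexamethasone + EPC-EVs libraries, and Hsp90aa1, Hsp90ab1, Hspd1 and Hspe1 were lowest there.

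The stress-inducible HSP70 is encoded by a pair of near-identical genes, Hspa1a (ENSMUSG00000091971.3) and Hspa1b (ENSMUSG00000090877.3), on the minus strand of chromosome 17. Hspa1b (chr17:34956436-34959238) had 6.74 and 16.2 CPM in control, 8.39 and 12.5 CPM in dexamethasone, and 57.6 and 115 CPM in dexamethasone + EPC-EVs. Both vesicle-treated libraries lay above the other 4, among which control and dexamethasone overlapped. The difference from dexamethasone was 8.13-fold (log2 fold change 3.02, SE 0.338, edgeR adjusted p = 4.82e-05), and that from control was 7.49-fold (2.91, SE 0.472, edgeR adjusted p = 0.00239). With the dependence of fold changes on GC content and length taken out, these log2 fold changes were 2.31 (adjusted p = 9.98e-04) and 1.66 (adjusted p = 0.0378). Without control replicate 2, the higher control library, the log2 fold change over control was 3.68.

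Hspa1a (chr17:34969190-34972156) had 1 and 0 counts in control, 0 and 0 in dexamethasone and 7 and 1 in dexamethasone + EPC-EVs, and no fold is given for it. Of the words of 100 bases in its transcript, 56.5% also occur in transcripts of other genes, Hspa1b among them, and so do 49.9% of those of Hspa1b. How reads that fit both genes were counted is not given in the sources used here, so the split between the pair is uncertain. Hspa1a also overlaps exons of Gm20481 on the other strand. Summed over both genes, the level was 6.90 and 16.2 CPM in control, 8.39 and 12.5 CPM in dexamethasone, and 58.2 and 115 CPM in dexamethasone + EPC-EVs. In a fit with the pair as 1 gene, the log2 fold change over dexamethasone was 3.03 (SE 0.336, edgeR adjusted p = 4.54e-05), close to that of Hspa1b alone.

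Hspa8 (ENSMUSG00000015656.17, chr9:40800984-40810087, plus strand) encodes HSC70, the HSP70 made without stress. It had 145.5 and 144 CPM in control, 143 and 136 CPM in dexamethasone, and 412 and 383 CPM in dexamethasone + EPC-EVs. The vesicle-treated libraries lay well above the other 4, and dexamethasone lay just below control. Over dexamethasone the rise was 2.81-fold (log2 fold change 1.49, SE 0.126, edgeR adjusted p = 7.21e-06), and over control it was 2.71-fold (1.44, SE 0.174, edgeR adjusted p = 7.54e-04). Small nucleolar RNA genes Snord14c, Snord14d and Snord14e overlap it on the same strand, and 32.1% of its words of 100 bases occur in other transcripts.

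Dnajb1 (ENSMUSG00000005483.10, chr8:83608193-83612653, plus strand) encodes HSP40, the J-domain partner that hands substrates to HSP70. It had 26.8 and 24.8 CPM in control, 20.3 and 21.4 CPM in dexamethasone, and 67.4 and 61.2 CPM in dexamethasone + EPC-EVs. The 3 groups did not overlap, with dexamethasone lowest. The rise was 3.05-fold over dexamethasone (log2 fold change 1.61, SE 0.201, edgeR adjusted p = 9.69e-05) and 2.46-fold over control (1.298, SE 0.237, edgeR adjusted p = 0.00381). The value over control was 0.76 with the dependence on GC content and length taken out (adjusted p = 0.0370).

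Hsph1 (ENSMUSG00000029657.15, chr5:149614287-149636376, minus strand) encodes HSP105, which exchanges the nucleotide of HSP70. It had 109 and 127 CPM in control, 117.5 and 130.2 CPM in dexamethasone, and 202 and 503 CPM in dexamethasone + EPC-EVs. Both vesicle-treated libraries lay above the other 4, but replicate 2 had 2.49 times the level of replicate 1. Over dexamethasone the log2 fold change of 1.49 (SE 0.469) did not pass the test (edgeR adjusted p = 0.0666), whereas over control it was 1.56 (SE 0.376, edgeR adjusted p = 0.0128). Both outcomes depended on the setting. DESeq2, limma, a replicate block and 1 fit of 6 libraries called the difference from dexamethasone, and limma with a pseudocount of 0.1 did not call that from control. Without replicate 1 of dexamethasone + EPC-EVs the value over dexamethasone was 2.02, and without replicate 2 it was 0.70, and each passed the test (edgeR adjusted p = 1.17e-11 and 1.79e-04), the lone library being assumed to vary like those of the other group. Over control, the call was lost without either control library (edgeR adjusted p = 0.142 and 0.135) and without replicate 2 of dexamethasone + EPC-EVs (log2 fold change 0.76, edgeR adjusted p = 0.0609).

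Hspa4l, a relative of Hsph1 in the HSP110 group, had 192 and 292.5 CPM in control, 196 and 195 CPM in dexamethasone, and 258 and 759 CPM in dexamethasone + EPC-EVs. Its replicate 2 in dexamethasone + EPC-EVs was thus 2.95 times replicate 1, and its log2 fold change over dexamethasone of 1.36 was not called (edgeR adjusted p = 0.206). Hspa1b had a replicate 2 at 1.99 times replicate 1 in the same libraries, while Hspa8 (0.931) and Dnajb1 (0.908) had replicates that were nearly equal. Hspa4l was chosen for this comparison after its values were seen.

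Hsp90aa1 (ENSMUSG00000021270.13, chr12:110690605-110702728, minus strand) encodes the stress-responsive cytosolic HSP90. It had 773 and 923 CPM in control, 564 and 563 CPM in dexamethasone, and 231 and 226 CPM in dexamethasone + EPC-EVs. The level was lower in each group in this order, and no groups overlapped. The fall from dexamethasone was 2.50-fold (log2 fold change -1.32, SE 0.118, edgeR adjusted p = 9.84e-06), and that from control was 3.76-fold (-1.91, SE 0.181, edgeR adjusted p = 3.41e-04). Of its words of 100 bases, 47.5% occur in transcripts of 3 other gene models, all with Gm names.

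Hsp90ab1 (ENSMUSG00000023944.14, chr17:45567775-45573271, minus strand) encodes the constitutive cytosolic HSP90 and shares no words with other genes. It had 2366 and 2398 CPM in control, 2227 and 2299 CPM in dexamethasone, and 1534 and 1501 CPM in dexamethasone + EPC-EVs. Both vesicle-treated libraries lay below the other 4. It fell 1.51-fold from dexamethasone (log2 fold change -0.60, SE 0.106, edgeR adjusted p = 0.00101) and 1.59-fold from control (-0.67, SE 0.168, edgeR adjusted p = 0.0150). The call against control was lost without either replicate of dexamethasone + EPC-EVs (edgeR adjusted p = 0.0814 and 0.094), and with the dependence on GC content and length taken out the log2 fold change was -1.04. The ratio of Hsp90aa1 to Hsp90ab1 FPKM was 0.249 and 0.294 in control, 0.193 and 0.187 in dexamethasone, and 0.115 in both dexamethasone + EPC-EVs libraries.

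**Figure D2:**
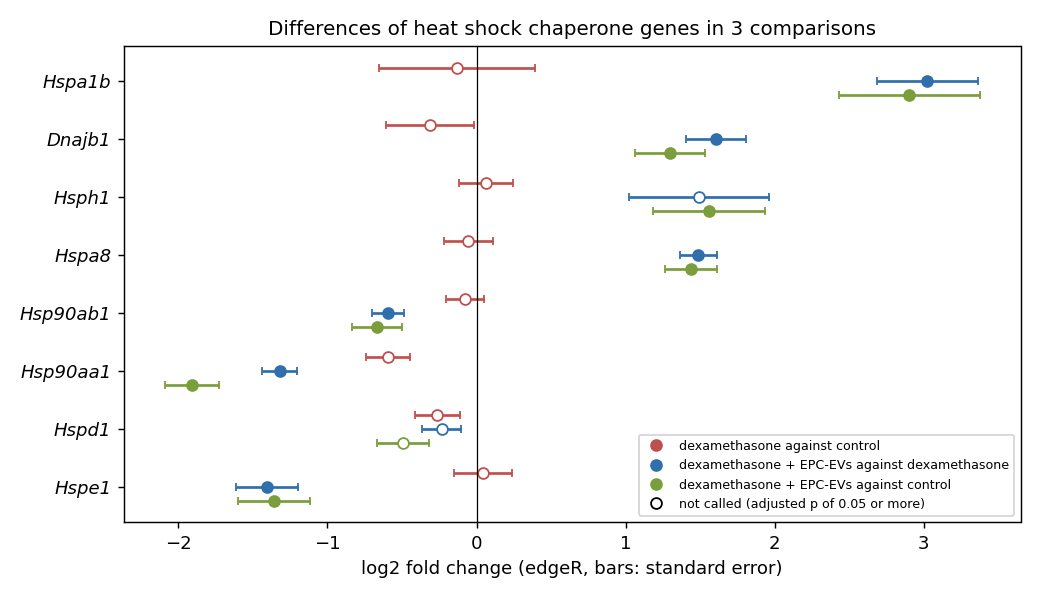
Log2 fold change (x axis, edgeR, bars for the standard error) of 8 heat shock chaperone genes (y axis) in the 3 comparisons, with filled points for called and open points for uncalled differences. Hspa1b, Dnajb1, Hsph1 and Hspa8 lie to the right at 1.298 to 3.02 in both comparisons with dexamethasone + EPC-EVs, Hsph1 with an open point against dexamethasone, and Hsp90aa1, Hsp90ab1 and Hspe1 lie to the left at -0.60 to -1.91. Hspa1a and Hspb1 are not drawn, since one was filtered out and the other was at 0 in control.

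The mitochondrial chaperonin genes Hspd1 (HSP60) and Hspe1 (HSP10) lie head to head on chromosome 1 and overlap at their starts. Hspe1 (ENSMUSG00000073676.4, chr1:55088132-55091307, plus strand) had 91.7 and 104 CPM in control, 88.8 and 114 CPM in dexamethasone, and 32.4 and 45.0 CPM in dexamethasone + EPC-EVs. Both vesicle-treated libraries lay below the other 4, among which the groups overlapped. It fell 2.65-fold from dexamethasone (log2 fold change -1.41, SE 0.207, edgeR adjusted p = 3.0e-04) and 2.56-fold from control (-1.36, SE 0.243, edgeR adjusted p = 0.00357).

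Hspd1 (ENSMUSG00000025980.14, chr1:55077835-55088243, minus strand) had 265 and 282 CPM in control, 218 and 240 CPM in dexamethasone, and 190 and 204 CPM in dexamethasone + EPC-EVs. The groups did not overlap, but the log2 fold change from dexamethasone was -0.23 (SE 0.131, edgeR adjusted p = 0.179) and that from control was -0.49 (SE 0.174, edgeR adjusted p = 0.0559), neither of which passed the test. DESeq2 called the difference from control (adjusted p = 0.0437), as did 3 other settings. The ratio of Hspe1 to Hspd1 FPKM was 0.621 and 0.661 in control, 0.731 and 0.849 in dexamethasone, and 0.305 and 0.395 in dexamethasone + EPC-EVs. Of the 2 partners of the chaperonin, Hspe1 was thus called lower and Hspd1 was not, and the difference between their changes was not tested. The study's methods describe a stranded alignment with HISAT2, but the strand setting of HTSeq is not given in the sources used here, and without it reads from the shared stretch could have been counted on either gene.

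The transcript table, which holds chromosome 1 here, gave a second measurement of this pair, in FPKM estimated per transcript. For Hspe1, the annotated transcript ENSMUST00000075242.6 had 79.8 and 83.0 FPKM in control, 88.7 and 111.9 FPKM in dexamethasone, and 33.3 and 47.1 FPKM in dexamethasone + EPC-EVs. Its difference from dexamethasone was -1.31 on the log2(FPKM + 1) scale (SE 0.277, limma adjusted p = 0.138), and that from control was -1.02 (SE 0.323, limma adjusted p = 0.143). By limma, 0 of 6 transcripts of the pair were called in either comparison, beside 0.0159% of 6283 and 0% of 6106 transcripts tested on the chromosome, of which 25.7% and 27.9% had an unadjusted p under 0.05. The annotated transcript of Hspe1 was among the latter in both comparisons, and so was 1 assembled one carrying the name Hspd1 against control. Another assembled one of that name was at 0 FPKM in both control libraries and entered that test through the vesicle-treated libraries alone, so its p is not read. In dexamethasone against control 0 of 4 transcripts of the pair were called by limma and 0 had an unadjusted p under 0.05, beside 0.0455% and 7.91% of 6587.

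Hspd1 was divided between the annotated transcript ENSMUST00000027123.14, which starts at 55088024, and an assembled one that starts at 55088243, further upstream. The annotated transcript had 67.6 and 56.6 FPKM in control, 60.4 and 25.9 FPKM in dexamethasone, and 43.1 and 37.3 FPKM in dexamethasone + EPC-EVs. The assembled transcript took 11% and 20.2% of their sum in control, 16.4% and 65.8% in dexamethasone, and 36.3% and 46.4% in dexamethasone + EPC-EVs. The replicates of dexamethasone were the farthest apart in this share, whereas the sum differed little between libraries, from 67.6 to 76.0 FPKM. The matched letters shown above for Hspe1 lie between the starts of the 2 transcripts, at 55088059 to 55088076.

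**Figure D3:**
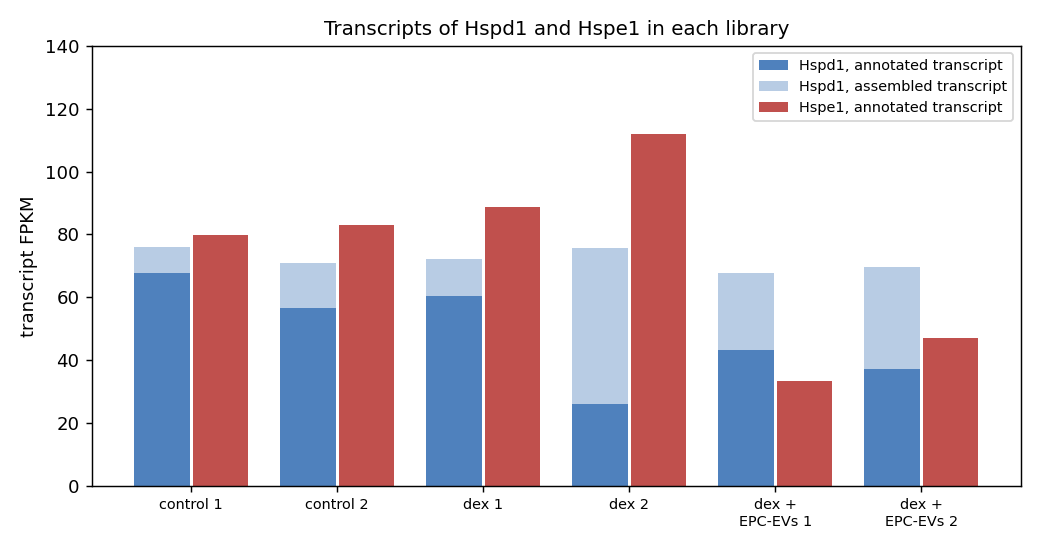
Transcript FPKM (y axis) of Hspd1, stacked from an annotated and an assembled transcript, and of Hspe1 in each library (x axis, dex for dexamethasone). The stacked Hspd1 bars stay between 67.6 and 76.0 FPKM, while Hspe1 drops to 33.3 and 47.1 FPKM in dexamethasone + EPC-EVs.

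Hspb1 (ENSMUSG00000004951.10, chr5:135887919-135889563, plus strand) encodes HSP25, the mouse counterpart of human HSP27 and a small heat shock protein that holds unfolded proteins without ATP. It had 0 and 0 counts in control, 35 and 8 counts in dexamethasone (5.15 and 1.18 CPM), and 32 and 53 counts in dexamethasone + EPC-EVs (2.51 and 4.09 CPM). Control was thus below both other groups, which overlapped. Pooled over a group and set against a floor of 3 counts over the control libraries, the level was at least 11.7-fold higher in dexamethasone and at least 12.2-fold higher in dexamethasone + EPC-EVs. This floor allows for counting error in control only, and the bounds leave out the spread between libraries. Without dexamethasone replicate 1, which held most of its counts, the first bound was 4.36-fold, and without dexamethasone replicate 2 it was 19-fold. Without a control library the bounds were 5.27-fold to 6.43-fold and 5.51-fold to 6.71-fold. In the second comparison Hspb1 passed the filter on low counts through the dexamethasone + EPC-EVs libraries alone, so it had to differ, and its call (edgeR adjusted p = 0.0147) is given as a description. It was lost without replicate 1 or replicate 2 of dexamethasone + EPC-EVs (edgeR adjusted p = 0.0646 and 0.178). The first was not tested, since Hspb1 did not pass the filter there, and between dexamethasone and dexamethasone + EPC-EVs the log2 fold change was 0.05 (SE 0.757, edgeR adjusted p = 0.968). Of its words of 100 bases, 42.7% occur in the transcripts of Hsp25-ps1 and Gm9817.

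Against control, Hspa1b, Hspa8, Dnajb1 and Hsph1 rose and Hsp90aa1, Hsp90ab1 and Hspe1 fell in dexamethasone + EPC-EVs. Hspb1 was set aside from these counts, since it passed the filter through the vesicle-treated libraries alone. Of the other 8 members tested 7 were thus called, beside 36.4% of 13511 genes. Higher calls made up 4 of the 8 and 19.1% of all genes, and lower calls made up 3 of the 8 and 17.2%. Groups did not overlap for 8 of the 8 and for 73% of all genes, and an unadjusted p under 0.05 was found for 8 of the 8 and for 46.7%. The threshold of the study's methods was passed by 3 of the 8 (Hspa1b, Hsp90aa1 and Hsph1) and by 20.7%. The median log2 fold change of the 8 was 0.40, in the gap between members above and below 0, beside 0.02 for all genes, and 1.298 with Hspb1 included.

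Dexamethasone alone was compared with control to ask what the glucocorticoid changed. By edgeR's quasi-likelihood test 0 of the 8 members tested were called, beside 0.0544% of 12879 genes (0.0155% higher and 0.0388% lower). The threshold of the study's methods was passed by 0 of the 8 and by 1.41% of all genes. Hsp90aa1 was the 1 member with an unadjusted p under 0.05, beside 10.9% of all genes, and the 1 member called by DESeq2. It was 1.51-fold lower in dexamethasone (log2 fold change -0.59, SE 0.147, edgeR adjusted p = 0.279). DESeq2 gave an adjusted p of 0.0166 for it. Over 16 alternatives its log2 fold change lay between -0.71 and -0.45, and whether it was called depended on the setting and on the library left out. The other 7 had log2 fold changes between -0.31 (Dnajb1) and 0.06 (Hsph1), with SEs of 0.126 (Hsp90ab1) to 0.523 (Hspa1b). The groups did not overlap for 5 of the 8 members and for 43.9% of all genes.

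Known target genes of the glucocorticoid receptor were looked at as a check of the drug. In dexamethasone against control 0 of the 6 tested were called by edgeR, beside 0.0544% of all genes, and 0 by DESeq2. An unadjusted p under 0.05 was found for 1 of the 6 (Dusp1, with a log2 fold change of -0.44), beside 10.9% of all genes, and the median was -0.09. Their summed level was 451.5 to 526 CPM in control and 429 to 436 CPM in dexamethasone, so these genes did not show the drug in the libraries labelled with it alone. In dexamethasone + EPC-EVs the sum was 771 and 1124 CPM. Over control 3 of the 6 were called higher there, beside 19.1% of all genes, and Sgk1 was not among them. Over dexamethasone 4 of the 6 were called higher, beside 20.9% of all genes, among them Tsc22d3 by 2.40, Dusp1 by 2.21 and Sgk1 by 0.75 (edgeR adjusted p = 0.00275, 8.97e-06 and 0.00299). Per1 (0.08) and Klf9 (-0.19) were not called over dexamethasone. Tsc22d3 rose by 1.70 without dexamethasone + EPC-EVs replicate 2, and Sgk1 was not called without either dexamethasone library (edgeR adjusted p = 0.0532 and 0.0637).

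Genes that work beside the members were counted in 6 lists, which share genes with each other, as for Ahsa1, Bag3 and Hspa4l. In dexamethasone against control, 0 of 74 different genes of these lists were called by edgeR, beside 0.0544% of all genes, and 10 had an unadjusted p under 0.05, beside 10.9% of all genes. Hspa12a, uncalled, was left out because it passed the filter through the dexamethasone libraries alone. DESeq2 called Hspb8, Hspa9 and Bag3 there (adjusted p = 0.0245, 0.0346 and 0.0455), and Bag3 stands in more than 1 list. The number of all genes that DESeq2 called in this comparison is given below with the other settings. In dexamethasone + EPC-EVs against dexamethasone, calls went both ways in every list. The background for them is again 20.9% of genes higher and 18.9% lower.

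Among other HSP70 family and small heat shock protein genes, 2 rose, 2 fell and 6 did not pass the test, with a median log2 fold change of 0.06. These counts leave out Hspb2, a small heat shock protein of muscle, which had 6 and 5 counts in dexamethasone and 33 and 85 in dexamethasone + EPC-EVs and passed the filter on low counts through the latter alone. With it the list had 3 rises and a median of 0.33. Hspb8, a small heat shock protein that works with Bag3 in clearing misfolded proteins, had 22.0 and 17.6 CPM in control, 45.4 and 47.7 CPM in dexamethasone, and 165 and 173 CPM in dexamethasone + EPC-EVs. The groups did not overlap, and its log2 fold change over dexamethasone was 1.84 (SE 0.149, edgeR adjusted p = 5.70e-06). In dexamethasone against control Hspb8 had 1.22, not called by edgeR (adjusted p = 0.231) and called by DESeq2 (adjusted p = 0.0245). Cryab, alpha B-crystallin, rose by 0.78 (edgeR adjusted p = 0.00971), and the small heat shock protein Hspb6 had a log2 fold change of -0.67 (edgeR adjusted p = 0.0434). Cryab lost its call without either dexamethasone library or dexamethasone + EPC-EVs replicate 2 (edgeR adjusted p = 0.0932, 0.115 and 0.0628), and Hspb6 without dexamethasone replicate 1 or dexamethasone + EPC-EVs replicate 2 (0.357 and 0.168).

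Among J-domain proteins and nucleotide exchange factors, 3 rose, 5 fell and 8 did not pass the test, with a median log2 fold change of 0.04. Dnajb2, a neuronal J-domain protein, rose by 1.43 and Hspbp1, an exchange factor, by 2.46, whereas Dnajb4, a relative of Dnajb1, had a log2 fold change of -1.33 (edgeR adjusted p = 7.55e-04, 0.00330 and 9.80e-04). Hspbp1 had 5.30 and 1.18 CPM in dexamethasone and 18.8 and 17.5 CPM in dexamethasone + EPC-EVs, and its log2 fold change was 3.92 without dexamethasone replicate 1 and 1.76 without dexamethasone replicate 2. Bag3, the exchange factor that pairs with Hspb8, had 164 and 135 CPM in control, 237 and 229 CPM in dexamethasone, and 215 and 247 CPM in dexamethasone + EPC-EVs. Its vesicle-treated libraries enclosed those of dexamethasone (log2 fold change -0.03, edgeR adjusted p = 0.880), and it rose over control by 0.61 (edgeR adjusted p = 0.0375), a call lost without control replicate 2 or either vesicle-treated library (0.0808, 0.0721 and 0.251). In dexamethasone against control Bag3 had a log2 fold change of 0.63, not called by edgeR (adjusted p = 0.279) and called by DESeq2 (adjusted p = 0.0455). Bag3 was chosen after its values were seen.

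Among HSP90 cochaperones, 6 rose, 3 fell and 7 did not pass the test, with a median log2 fold change of -0.12. Ahsa1, which stimulates the ATPase of HSP90, had 32.9 and 30.03 CPM in control, 36.4 and 25.2 CPM in dexamethasone, and 67.1 and 61.7 CPM in dexamethasone + EPC-EVs. Control and dexamethasone overlapped and the vesicle-treated libraries lay above both, with a log2 fold change over dexamethasone of 1.05 (SE 0.215, edgeR adjusted p = 0.00251). Unc45a, a myosin chaperone, rose by 1.04 and Sugt1 had a log2 fold change of -1.18 (edgeR adjusted p = 0.00465 and 9.02e-04). The other 2 falls were those of Stip1 (-0.63) and St13 (-0.54), which both hand clients from HSP70 towards HSP90 and were named after their values were seen (edgeR adjusted p = 0.00171 and 0.00567).

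Of the mitochondrial folding and protease genes, 2 rose, 1 fell and 10 did not pass the test, with a median log2 fold change of -0.10. Htra2, a protease of the intermembrane space, had 11.5 and 0.601 CPM in control, 14.4 and 12.1 CPM in dexamethasone, and 56.2 and 55.5 CPM in dexamethasone + EPC-EVs. It rose by 2.06 over dexamethasone (SE 0.223, edgeR adjusted p = 3.61e-05), with control replicate 2 far below replicate 1. The inner membrane protease Yme1l1 had a log2 fold change of -1.07 and the protease subunit Spg7 one of 0.53 (edgeR adjusted p = 2.32e-04 and 0.0450). Spg7 was not called without any 1 of the 4 libraries (edgeR adjusted p = 0.0608 to 0.175). Hspa9, the mitochondrial HSP70, was not called against dexamethasone (log2 fold change -0.30, edgeR adjusted p = 0.0769) and fell against control (-0.86, edgeR adjusted p = 0.00735), a call lost without dexamethasone + EPC-EVs replicate 1 (log2 fold change -0.77). In dexamethasone against control Hspa9 had -0.57, not called by edgeR (adjusted p = 0.286) and called by DESeq2 (adjusted p = 0.0346).

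In the list of the cytosolic chaperonin TRiC and of prefoldin, which delivers actin and tubulin to it, 2 genes rose, 2 fell and 10 did not pass the test, with a median log2 fold change of 0.11. The chaperonin subunit Cct6a rose by 0.50 (edgeR adjusted p = 0.0201), and the prefoldin subunits Vbp1 and Pfdn5 had log2 fold changes of -1.74 and -0.56 (edgeR adjusted p = 0.00451 and 0.00962). Without dexamethasone replicate 2 none of these 3 was called (edgeR adjusted p = 0.132, 0.0773 and 0.119), nor was Cct6a without dexamethasone replicate 1 or dexamethasone + EPC-EVs replicate 1 (0.0950 and 0.0825). All 8 TRiC subunits had values above 0, between 0.09 (Cct2) and 0.50 (Cct6a), and all 6 prefoldin subunits had values below 0, between -0.28 (Pfdn4) and -1.74 (Vbp1). This division was seen in the values and was not tested, and it did not hold against control, where Pfdn4 and Pfdn6 had values of 0.05 and 0.03.

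Hsf1, the regulator named above, had 37.95 and 46.1 CPM in control, 48.5 and 34.3 CPM in dexamethasone, and 61.5 and 64.9 CPM in dexamethasone + EPC-EVs. It rose by 0.59 over dexamethasone (SE 0.205, edgeR adjusted p = 0.0377), a call lost without dexamethasone replicate 2 or dexamethasone + EPC-EVs replicate 2 (0.243 and 0.0675), and had a log2 fold change of 0.57 over control that did not pass the test (edgeR adjusted p = 0.0841, and 0.0384 without control replicate 2). In a list of Hsf1, its relative Hsf2, the HSF1-binding protein gene Hsbp1 and known HSF1 targets outside the 10 members, 7 genes rose, 3 fell and 6 did not pass the test, with a median log2 fold change of 0.28. The falls were those of Hsbp1 (-0.50, edgeR adjusted p = 0.0126) and of the targets Dnaja1 (-0.53) and Stip1 (-0.63). Dnaja1 was named after its values were seen. Serpinh1, the collagen chaperone HSP47, had 313 and 253 CPM in control, 406 and 358 CPM in dexamethasone, and 791 and 773 CPM in dexamethasone + EPC-EVs, and rose by 1.01 (SE 0.118, edgeR adjusted p = 5.86e-05). Its client genes Col1a1 and Col1a2, counted here as osteoblast markers, rose by 1.51 and 1.89 (edgeR adjusted p = 1.16e-05 and 1.42e-06).

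**Figure D4:**
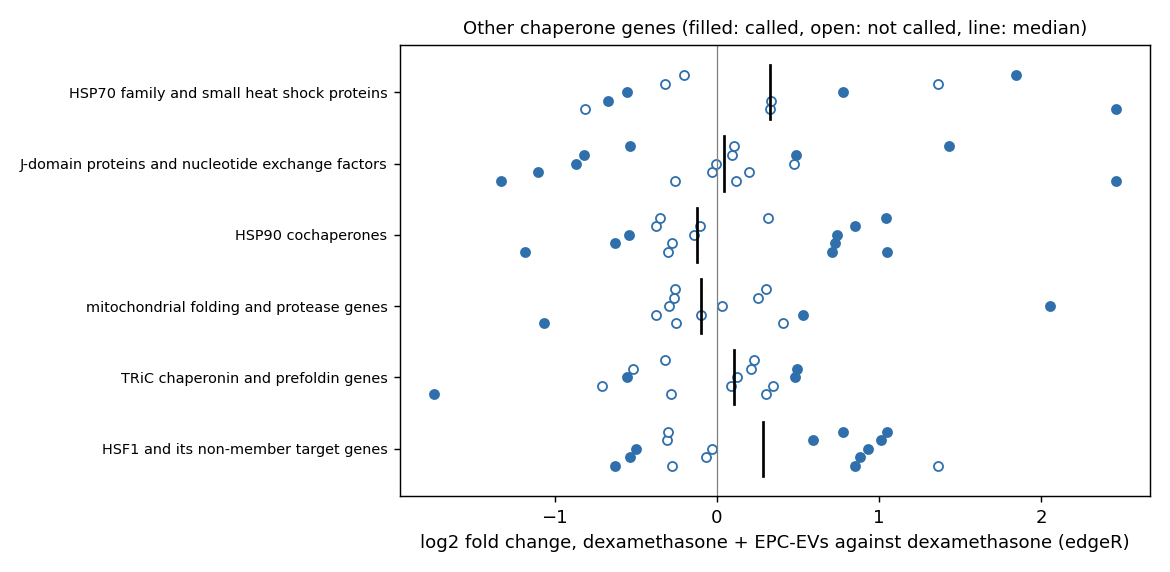
Log2 fold change in dexamethasone + EPC-EVs against dexamethasone (x axis, edgeR) of the tested genes of 6 chaperone-related lists (y axis), with filled points for called genes, open points for uncalled genes and a line at the median of the list. Medians lie between -0.12 and 0.33 with Hspb2 included, and each list holds called genes on both sides of 0.

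Against control the same lists gave 2 rises and 3 falls among 9 other HSP70 and small heat shock protein genes, 2 and 5 among 15 J-domain and exchange factor genes, 6 and 3 among 16 HSP90 cochaperones, 1 and 2 among 13 mitochondrial genes, 0 and 3 among 14 TRiC and prefoldin genes, and 6 and 3 among 16 genes of the HSF1 list, beside 19.1% higher and 17.2% lower of all genes. These counts leave out Hspb2, Hspa12a and Hspbp1, which had 2 and 3, 2 and 0, and 6 and 5 counts in control and passed the filter through the vesicle-treated libraries alone. Among HSP70 and small heat shock protein genes, Hspb8 rose by 3.07, and Hspa4 and Hspb6 had log2 fold changes of -0.94 and -0.95 (edgeR adjusted p = 1.44e-04, 0.0141 and 0.0187). Of the J-domain proteins, Dnajb2 rose by 2.23, whereas Dnaja2, a cytosolic partner of HSP70, and Dnajb4 had values of -1.54 and -1.45 (edgeR adjusted p = 0.00219, 0.00285 and 0.00587). Of the HSP90 cochaperones, Fkbp4, an immunophilin, rose by 1.08 and Unc45a, a myosin chaperone, by 1.48, whereas Sugt1 had a value of -1.50 (edgeR adjusted p = 0.0149, 0.0430 and 0.00188). Of the mitochondrial genes, the HSP70 Hspa9 and the protease Yme1l1 had values of -0.86 and -1.48 (edgeR adjusted p = 0.00735 and 0.00266). The protease Htra2 rose by 3.14 (edgeR adjusted p = 0.0130), with 70 and 3 counts in the control libraries, and by 6.53 and 2.28 without the first and the second of them. Unc45a likewise rose by 2.72 without control replicate 1 and by 0.87 without control replicate 2. The prefoldin subunits Pfdn1, Pfdn5 and Vbp1 had values of -1.28, -0.84 and -2.05 (edgeR adjusted p = 0.0127, 0.00818 and 0.00660). In the HSF1 list, Serpinh1 rose by 1.45 (edgeR adjusted p = 8.50e-04). Calls were lost for Hspa4, Pfdn1 and Pfdn5 without dexamethasone + EPC-EVs replicate 1 (edgeR adjusted p = 0.0866, 0.106 and 0.0733) and for Hspb6 without dexamethasone + EPC-EVs replicate 2 (0.170).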

How the data were processed

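Per the labels and the methods of the study, the authors aligned reads to GRCm38, counted them on genes with HTSeq 0.6.1 and deposited the counts without normalisation, beside an FPKM per gene, and the authors estimated the transcript FPKM with StringTie. The labels name DESeq2 1.26.0 for the authors' comparisons, which were not used. Counts were fitted here in R 4.3.3 with edgeR 4.0.16 (TMM, filterByExpr, robust quasi-likelihood test) on the 4 libraries of each pair of groups, with Benjamini-Hochberg adjustment over the whole set of genes tested. CPM use TMM over all 6 libraries. Transcripts of at least 0.5 FPKM in 2 libraries were tested with limma 3.58.1 on log2(FPKM + 1). Scripts were tested on simulated data. Of 21686 genes, 21646 were found in GENCODE vM21, the source of coordinates, overlaps and words of 100 bases.

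The replicates are separate samples by the labels and differed by more than sampling noise (chi-square per degree of freedom of 7.17 to 20.1), and the p-values measure only the spread between these samples, which may be technical. The members and lists were chosen with earlier results of these data known. All members are described, and of each list up to 3 called genes of 10 CPM or more on average, those with the largest changes, plus Hsf1; a few are marked as chosen after their values were seen, and 1 is not reported here. Alternatives were upper-quartile normalisation, DESeq2 1.42.0, no filter, 1 fit of 6 libraries, a replicate block, removal of mitochondrially encoded genes, removal of a GC and length trend (loess span of 0.4), limma on gene FPKM, the threshold of the study's methods (unadjusted p under 0.05, log2 fold change beyond 1.5) and leaving out each library.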

Additional observations from a re-analysis of the deposited data

How the results depend on the processing

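The replicate numbers did not pair the samples, with correlations of the deviations of same-numbered libraries of 0.0619, 0.0114 and 0.00732. With a replicate block, 0, 7 and 8 of the heat shock chaperone genes were called in dexamethasone against control, dexamethasone + EPC-EVs against dexamethasone and dexamethasone + EPC-EVs against control, beside 0, 6 and 8 without it (Hspb1 included in the last). The gain was Hsph1 (adjusted p = 0.00836), and 0 transcripts of Hspd1 and Hspe1 were called in any comparison. Over all genes the block gave 43, 5366 and 4679 calls, beside 7, 5397 and 4916.

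In dexamethasone against control, 1 member was called with DESeq2 and 1 with no filter, and 0 to 1 when a library was left out. All genes called numbered 134 with DESeq2, 248 with no filter, 18 without the GC and length trend, 1 without mitochondrially encoded genes, 0 with limma, 182 at the threshold of the study's methods and 9 to 2200 without a library, the highest without control replicate 1. Log2 fold changes that turned there were those of Hspa1b with limma (0.0172 and 0.0400 with pseudocounts of 1 and 0.1), of Hspa8 with limma (0.0209 and 0.0215), and, without a library, of Hspa1b (from -0.63 to 0.65, above 0 without control replicate 2 or dexamethasone replicate 1), Hsph1 (from -0.035 to 0.19) and Hspe1 (from -0.147 to 0.217), the latter 2 below 0 without control replicate 1 or dexamethasone replicate 2. None of these was called.

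In dexamethasone + EPC-EVs against dexamethasone, the threshold of the study's methods left 2 members, and 6 to 7 were called without a library. All genes called numbered 1922 at that threshold and 3250 without dexamethasone replicate 2. The uncalled value of Hspb1 turned with upper-quartile normalisation (-0.0019), without the GC and length trend (-0.95), and ranged from -0.65 (without dexamethasone replicate 2) to 1.47 without a library. Hsph1 was also called with DESeq2 (adjusted p = 0.0473), 1 fit of 6 libraries (0.00466) and limma (0.0395 and 0.0454). Against control, Hspd1 was called with upper-quartile normalisation (0.0380), DESeq2, 1 fit of 6 libraries (0.0242) and without control replicate 1. Hsph1 lost its call with limma and a pseudocount of 0.1 (0.0530). The threshold left 4 members and 2793 genes, Hspb1 counted although it passed the filter through 1 group alone. Which members were called also changed when a library was left out, the fewest without dexamethasone + EPC-EVs replicate 2. Of the transcripts of Hspd1 and Hspe1, 0 to 1 were called without a library in both comparisons with dexamethasone + EPC-EVs, the 1 without dexamethasone replicate 1 or control replicate 2. Calls in the 6 lists ranged, over all alternatives except the threshold, from 1 to 5 (5 in the main test), 5 to 8 (8), 4 to 10 (9), 2 to 3 (3), 0 to 8 (4) and 6 to 11 (10) against dexamethasone, and from 2 to 7 (6), 4 to 8 (8), 4 to 10 (9), 2 to 5 (3), 1 to 5 (3) and 5 to 11 (9) against control, with Hspb2 and Hspbp1 counted. Over the same alternatives, all genes called numbered 3250 to 5684 (5397 in the main test) against dexamethasone and 3375 to 6231 (4916) against control. The threshold left 0 to 2 and 0 to 3 per list. In dexamethasone against control up to 6 genes of a list were called over these alternatives, beside 0 to 2200 of all genes. The causes were not tested. A group of 2 libraries limits the spread estimate, and a library left alone in its group was assumed to vary like the others.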

Other observations

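Over the 6 libraries, 9211 genes of 10 CPM or more on average were ranked by the correlation of their log2 CPM with that of the summed Hspa1a and Hspa1b. The 5 most alike were Becn1 (Pearson r = 0.9985), Kcnj2 (0.997), Prcc (0.995), Dstn (0.9945) and Cmtm4 (0.992). With 522 genes above 0.9, and with depth and composition that differ between the same libraries, this order is a description and carries no test.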
